A study of Mus musculus with 4 samples.

Results

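Complement transcripts were followed through the myeloid cells of a mouse melanoma. The set comprised 8 genes, *C1qa*, *C1qb*, *C1qc*, *C3*, *Cfb*, *Cfp*, *C3ar1* and *C5ar1*, chosen by symbol from the 32285 genes listed for the CD45-positive cells, without use of their measured values in the choice rule. B16-F10 melanoma cells, 1 single-cell clone in which doxycycline (dox) switches on the green protein ZsGreen (ZsG) from the lentiviral vector pInducer21, were grown under the skin of wild-type C57BL/6 mice that drank dox-containing water, and tumors were taken on day 8. Immune cells, marked by CD45, were sorted by ZsG into a negative and a bright positive gate, each giving 1 droplet library read at the 3' end of transcripts. In its results the study states that this sort took bright positive cells and that most lymphocytes carrying ZsG landed in the negative gate. The sources read here do not say how many mice gave each library. Both groups thus shared the tumor clone, the dox and the day, and differed in the fluorescence that the sorted immune cells carried. A separate sort of T cells gave 2 more libraries and is described last.

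Complement is a cascade of plasma proteins that tags particles for uptake and releases small inflammatory fragments. C1q, built from the chains of *C1qa*, *C1qb* and *C1qc*, recognizes antibody-coated or dying cells and starts the classical pathway; in tissues it is made largely by macrophages rather than by the liver. C3 is the hub on which all pathways meet, factor B (*Cfb*) supplies the protease of the alternative pathway and properdin (*Cfp*) stabilizes its convertase, while *C3ar1* and *C5ar1* encode the receptors for the anaphylatoxins C3a and C5a.

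With 1 library per gate there were no replicates, so no test was made. Levels are summed unique molecular identifiers (UMIs, each standing for a captured RNA molecule) of a gene scaled to the total UMIs of the same cells, as CPM (counts per 1000000 UMIs), with exact Poisson 95% intervals, and ratios have exact conditional 95% intervals; all of them cover counting error only. A gene was called higher or lower where the ratio was at least 2-fold, its interval excluded equality and at least 20 UMIs were seen over both sides. Barcodes numbered 5437 (ZsG-negative) and 5168 (ZsG-positive), with 47537541 and 56510578 UMIs. After filtering, 4699 and 4123 cells were left, with medians of 5769 and 9928 UMIs. Clusters took the name of a cell class with "-like" from their marker genes: 2392 macrophage-like, 796 monocyte-like (classical), 226 non-classical monocyte-like, 341 DC2-like, 102 DC1-like, 62 mature DC-like, 222 pDC-like (plasmacytoid), 2626 NK cell/ILC-like, 1758 T cell-like and 40 B cell-like cells, beside 2 unnamed clusters split from the dendritic cells. The sort held all but a few macrophage-like cells in 1 gate: 2388 were ZsG-positive and 4 ZsG-negative. The monocyte-like cells were 738 ZsG-positive and 58 ZsG-negative, whereas non-classical monocyte-like cells were 32 and 194. Those 4 ZsG-negative macrophage-like cells carried 3 of 9 macrophage markers (282 CPM) and 3 of 5 neutrophil markers (9539). They are not described on their own as macrophages further, but values for both libraries together include them.

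All 8 genes lie on the minus strand in GRCm38. The C1q genes stand side by side on chromosome 4 within 18675 bases, *C1qb* at chr4:136880129-136886187, *C1qc* at chr4:136889804-136893065 and *C1qa* at chr4:136895917-136898803. *C3* lies at chr17:57203970-57228136, *Cfb* at chr17:34856374-34862518, 85 bases from its relative *C2*, *Cfp* at chrX:20925454-20931555, *C3ar1* at chr6:122847138-122856161 and *C5ar1* at chr7:16246743-16259540. RefSeq promoters (GRCm38.p6) were matched for 6 of the 8; *C1qa* and *Cfb* had no entry. The 250 bases before the start are shown for 3 members with different patterns over the cell classes, *C1qb* (macrophages), *C3* (monocytes) and *Cfp* (dendritic cells and macrophages), on the gene's strand from 5′ to 3′ with motif matches in capitals:
C1qb, chr4:136886201-136886450, minus strand: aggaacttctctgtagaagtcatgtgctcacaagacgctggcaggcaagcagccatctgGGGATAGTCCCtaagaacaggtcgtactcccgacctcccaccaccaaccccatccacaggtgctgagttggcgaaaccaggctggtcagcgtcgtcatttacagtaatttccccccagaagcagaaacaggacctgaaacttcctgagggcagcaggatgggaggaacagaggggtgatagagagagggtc
C3, chr17:57228137-57228386, minus strand: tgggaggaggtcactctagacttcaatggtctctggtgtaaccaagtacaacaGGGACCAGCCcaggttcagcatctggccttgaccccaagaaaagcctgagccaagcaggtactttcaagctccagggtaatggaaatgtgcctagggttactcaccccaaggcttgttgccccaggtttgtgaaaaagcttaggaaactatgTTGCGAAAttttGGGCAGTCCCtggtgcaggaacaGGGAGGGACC
Cfp, chrX:20931556-20931805, minus strand: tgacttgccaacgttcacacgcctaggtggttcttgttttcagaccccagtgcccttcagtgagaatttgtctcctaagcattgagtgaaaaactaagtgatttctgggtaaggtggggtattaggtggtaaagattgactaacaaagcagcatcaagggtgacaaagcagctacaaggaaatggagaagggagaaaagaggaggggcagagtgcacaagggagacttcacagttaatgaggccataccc

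Matches to 4 short patterns on both strands are given, and they may overlap. The short core pattern of NF-kB factors was found in *C1qb* at -191 to -182 from the start and, overlapping it on the opposite strand, at -190 to -181. In *C3* it was found at -197 to -188 and -10 to -1 and, on the opposite strand, at -33 to -24, beside TTGCNNAA (C/EBP factors) at -45 to -38. The *Cfp* window held none of the 4. Of 32851 promoters of this length, 17.6% held the NF-kB core and 9.56% TTGCNNAA. GAGGAAGT (PU.1) and the pattern of interferon-regulatory factors were in none of these 3 windows and in 2.44% and 2.98% of all promoters. The *C1qc* window, not shown, held GAGGAAGT on the opposite strand at -195 to -188 and the NF-kB core on the opposite strand at -40 to -31. A match describes letters and is not a binding site.

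C1q transcripts were the most macrophage-weighted of the set. Together *C1qa*, *C1qb* and *C1qc* made up 0.691% of all UMIs of macrophage-like cells (95% binomial interval 0.688 to 0.694%), against 0.0909% in monocyte-like and 0.00285% in non-classical monocyte-like cells. *C1qa* stood at 2425 CPM in macrophage-like, 220 in monocyte-like and 4.84 in non-classical monocyte-like cells. The values for *C1qb* were 2945, 506 and 17.8. Those for *C1qc* were 1537, 182 and 5.92. No intervals of neighboring classes overlapped in this order for any of the 3 chains, whereas at lower levels DC1-like and DC2-like cells did overlap for each (89.0 and 82.1 for *C1qa*). Macrophage-like cells held 11.01 times the *C1qa* level of monocyte-like cells (10.4 to 11.6), 5.82 times that of *C1qb* (5.62 to 6.03) and 8.43 times that of *C1qc* (7.95 to 8.95), and 7.60 times their sum (7.40 to 7.81). Within the ZsG-positive library alone the sum was 6911 against 978 CPM, or 7.07-fold.

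Receptor transcripts were also weighted toward macrophages, the alternative pathway components less so. *C3ar1* stood at 439 CPM in macrophage-like and 156 in monocyte-like cells, a 2.82-fold difference (2.64 to 3.01). *C5ar1* stood at 177 and 90.6, a difference of 1.95-fold (1.79 to 2.13) that just missed the 2-fold limit. *Cfb* (291 and 202) and *Cfp* (170 and 115) differed by 1.44-fold (1.35 to 1.53) and 1.48-fold (1.37 to 1.60). *C3* alone pointed the other way: 106 CPM in macrophage-like and 185 in monocyte-like cells, 1.75-fold higher in the latter (1.63 to 1.87). Of the 8 members, 4 were thus called higher and 0 lower, beside 14.4% and 3.3% of the 11687 genes that passed the UMI minimum; the median log2 ratio was 1.23 for the members and 0.25 for all those genes. The same 4 were called within the ZsG-positive library, where the background was 14.1% higher and 3.09% lower. The size differed with the clustering. At a finer resolution of 1.2 the monocyte-like class took in 592 of the macrophage-like cells and its C1q sum became 2711 CPM. The log2 ratio of the sums was then 1.46 against 2.93 as reported.

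**Figure D1:**
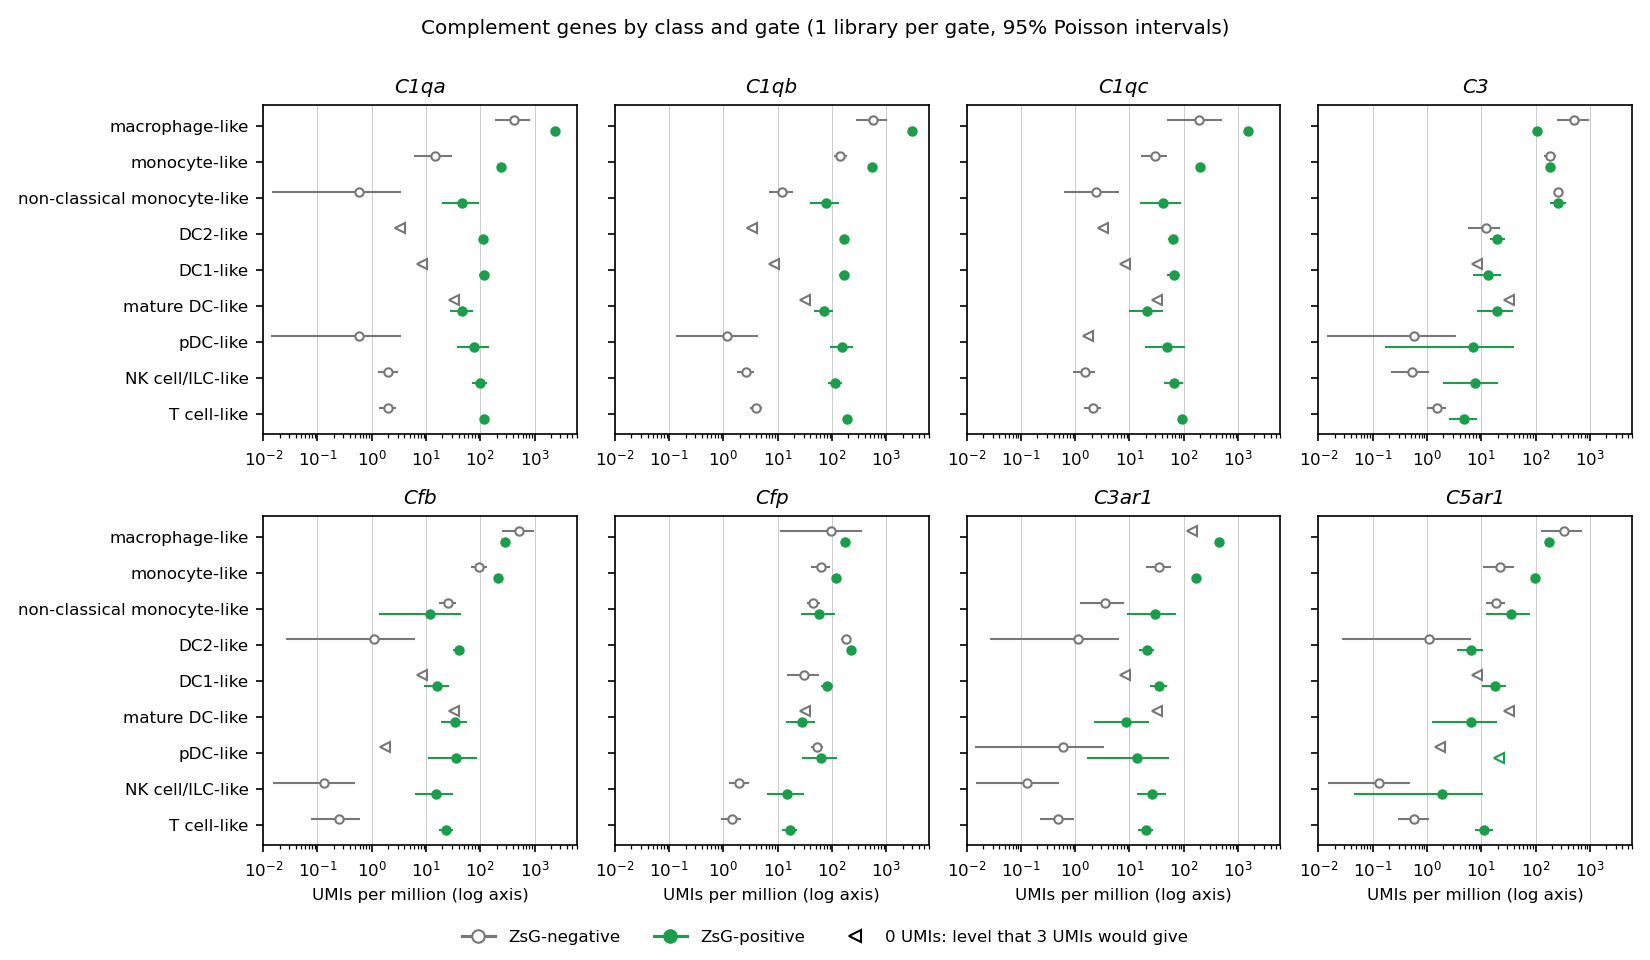
Levels of each complement gene by cell class, in CPM on a log axis, with open grey points for the ZsG-negative and filled green points for the ZsG-positive library, exact Poisson 95% intervals and left-pointing triangles where no UMI was seen, drawn at the level of 3 UMIs. The C1q panels fall from macrophage-like to non-classical monocyte-like cells and the *C3* panel does not. With both libraries summed, which is not drawn, *Cfp* is at 216 in DC2-like and 170 in macrophage-like cells.

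The share of cells with a UMI followed the levels. After each cell was thinned to 3000 UMIs, *C1qb* was seen in 79.9% of macrophage-like, 38.1% of monocyte-like and 5.86% of non-classical monocyte-like cells (87.2%, 53.3% and 8.41% unthinned). *C3ar1* was seen in 65.9%, 29.7% and 1.80% of them (88.6%, 46.4% and 3.1% unthinned). *C3* was seen in 26.8%, 37.3% and 42.8% (55.4%, 59.5% and 74.8% unthinned), so its order was again the opposite. Thinning left out 36, 5 and 4 cells, and the median depths before it were 11370, 7110.5 and 7851 UMIs. In NK cell/ILC-like cells, which are not known to make C1q, the thinned shares of *C1qb*, *C3ar1* and *C3* were 29.1%, 8.86% and 2.53% in the ZsG-positive library (36.3%, 10.6% and 3.54% unthinned, median 3556 UMIs), from which most macrophage-like and monocyte-like cells came. They were 0.717%, 0.0448% and 0.135% in the ZsG-negative library (1.03%, 0.0796% and 0.279% unthinned, median 4584 UMIs). The ZsG-positive NK cell/ILC-like class held 113 cells before thinning, which left out a larger part of it than of the myeloid classes above. Its thinned shares thus rest on few cells.

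Non-classical monocyte-like cells, the patrolling monocytes marked by *Ace*, *Treml4* and *Adgre4*, stood out for carrying *C3* with little else of the set. Their *C3* level was 256 CPM (234 to 280) against 185 (174 to 196) in monocyte-like cells, 1.39-fold higher (1.24 to 1.54). Against the same cells *C1qa* was 45.5-fold lower (4.84 against 220), *C3ar1* 26.3-fold lower (5.92 against 156) and *Cfb* 8.55-fold lower (23.7 against 202). *C5ar1* stood at 20.5 against 90.6 and *Cfp* at 46.3 against 115. Of the members, 7 of 8 were called lower and 0 higher, where 7.5% and 13.3% of 9246 genes were; the members' median log2 ratio was -3.91 and that of all genes 0.17. The gates entered this difference, because non-classical monocyte-like cells came mostly from the ZsG-negative and monocyte-like cells mostly from the ZsG-positive library.

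Within each library the *C3* relation held and those of *Cfp* and *C5ar1* did not hold in both. In the ZsG-negative library *C3* stood at 255 in non-classical and 185 in classical monocyte-like cells, and in the ZsG-positive library at 264 and 185. *C1qa* was 5.10-fold lower in the ZsG-positive library (47.0 against 240, from 8 UMIs in the non-classical cells) and had 1 against 8 UMIs in the ZsG-negative one. *C3ar1* was 5.70-fold lower in the ZsG-positive (29.4 against 168) and 9.88-fold lower in the ZsG-negative library (3.56 against 35.1), so the pooled ratios of both genes were larger than those within a library where the UMI minimum was met. *Cfb* was 3.86-fold lower in the ZsG-negative library (24.9 against 96.1) and 18.1-fold lower in the ZsG-positive one, where the non-classical cells had 2 UMIs. The C1q sum was 14.8 against 187 in the ZsG-negative library, 12.6-fold lower (8.07 to 20.4), and 165 against 978 in the ZsG-positive one, 5.94-fold lower (4.11 to 8.95). *C5ar1* was 19.0 against 22.2 (log2 ratio -0.23, -1.22 to 0.87) in the first and 35.3 against 97.1 in the second. *Cfp* was 45.0 against 62.9 (log2 ratio -0.48, -1.08 to 0.15) in the first and 58.8 against 120 in the second. Of the 7 members past the UMI minimum in the ZsG-negative library, 4 were called lower (*C1qb*, *C1qc*, *Cfb* and *C3ar1*), and 0 higher, beside 4.07% lower and 7.69% higher of 7130 genes. In the ZsG-positive library 7 of 8 were called lower and 0 higher, beside 4.95% and 6.42% of 8508 genes. There the non-classical cells lay below the NK cell/ILC-like level of the same library for *C1qa*, *C1qb*, *C1qc* and *Cfb*. With that level taken off these stood at -51.0, -38.6, -24.8 and -3.33 CPM and *C3ar1* at 2.99. *C3*, *Cfp* and *C5ar1* stayed higher, at 257, 43.7 and 33.4. The part of this level in the ratios was not tested.

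**Figure D2:**
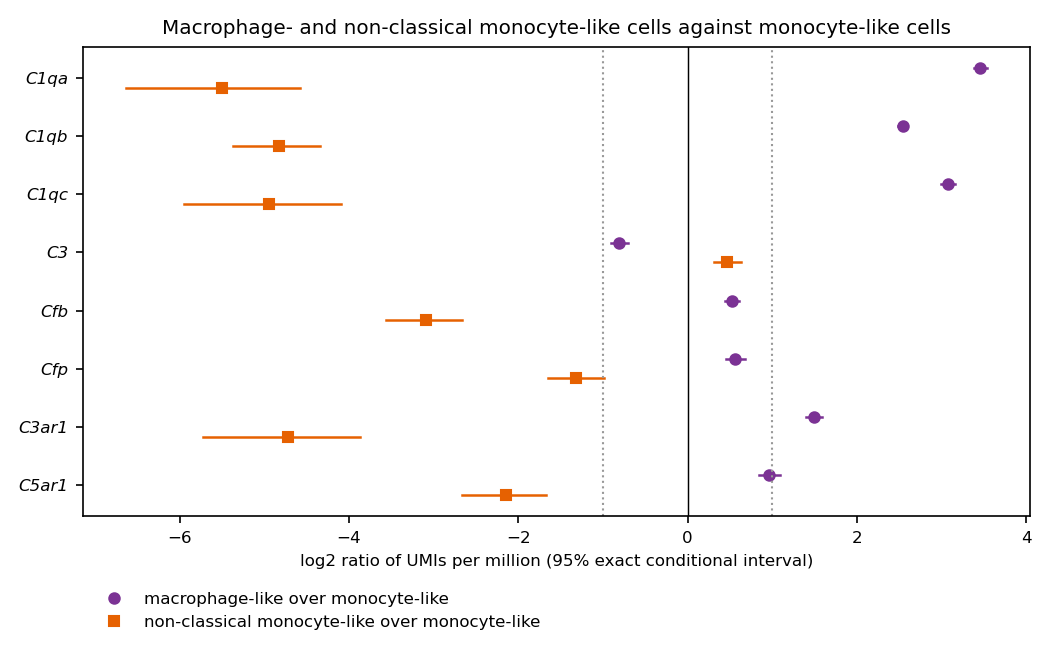
Log2 ratio of CPM for each complement gene, macrophage-like (circles) and non-classical monocyte-like (squares) over monocyte-like cells, both libraries summed, with exact conditional 95% intervals and dotted lines at a 2-fold difference. *C3* is the only gene below 0 for macrophage-like cells (-0.80) and the only one above 0 for non-classical monocyte-like cells (0.47).

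Other complement genes were sparse in these cells. Of 39 listed, 11 passed the UMI minimum between macrophage-like and monocyte-like cells. Of those 11, 2 were called higher, beside 14.4% of the 11687 genes that passed it. Calls lower among them are not reported here. The 2 called higher were *Itgax* (34.7 against 15.3 CPM), a chain of complement receptor 4, and the ficolin gene *Fcna* (38 UMIs against 1). The chains of complement receptor 3 differed little, *Itgam* at 254 and 298 and *Itgb2* at 346 and 330. *C1ra* (10.8 against 5.65), *C4b* (10.5 against 5.49) and *C5ar2*, the second C5a receptor (5.81 against 4.20), were low in both. *Cr1l*, a membrane regulator, was at 50.7 and 41.0, and *C2* had 48 and 6 UMIs.

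The 3 macrophage-like clusters differed in C1q and in *C3*. The largest, led by *Ms4a7*, *Gdf3* and *Ccl8* (1656 cells), had a C1q sum of 7424 CPM. The cluster led by *Mmp12*, *Rhov* and *Inhba* (421 cells), which also had *Nos2* among its leading genes, had 3433, or 2.16-fold less (2.12 to 2.21). *C1qa* was at 986 there against 2623, *C1qc* at 761 against 1634 and *C1qb* at 1686 against 3167, and 2 of 8 members (*C1qa* and *C1qc*) were called lower, and 0 higher, beside 8.74% and 6.09% of 10990 genes. *C3* (130 against 121) and *C3ar1* (445 against 487) were nearly level between these clusters, so the smaller C1q sum was not matched by every member.

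The other macrophage-like cluster, led by *Anln*, *Olfml3* and *Fcrls* (315 cells), kept the C1q level and had less *C3*. Its C1q sum was 6934, with *C1qa* at 2483, *C1qb* at 2855 and *C1qc* at 1596. *C3* was at 48.6 against 121 in the largest cluster, 2.50-fold lower (2.23 to 2.80), and was the 1 member called, beside 1.56% called lower and 9.7% higher of 11366 genes. *Cfb* was at 184 against 338 and *C3ar1* at 295 against 487. This cluster was deeper (median 22045 against 11456.5 UMIs), 13.97% of its cells were in the top 5% of doublet scores against 4.23%, and its 6 T cell markers, all detected, summed to 346 CPM against 47.9 in the ZsG-positive cells of the largest cluster; their part in the result was not tested.

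C1q varied widely between single macrophage-like cells. The median cell gave 0.534% of its UMIs to C1q, the 5th percentile 0 and the 95th 1.71%. All 3 chains were seen in 1709 of 2392 cells, and 147 cells had none, among them 3 of the 4 ZsG-negative cells. By cluster the medians were 0.633% (led by *Ms4a7*), 0.617% (led by *Anln*) and 0.148% (led by *Mmp12*), and in monocyte-like cells 0.0185%.

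**Figure D3:**
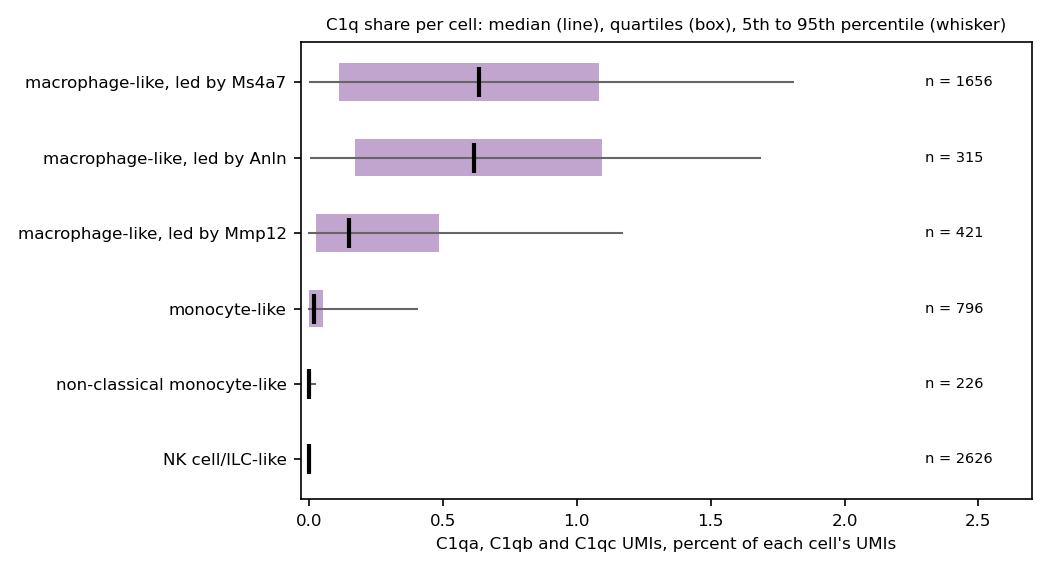
UMIs of *C1qa*, *C1qb* and *C1qc* as a percent of each cell's UMIs, with the median (line), the quartiles (box) and the 5th to 95th percentiles (whisker) over the cells of each class or cluster. Medians are 0.633% and 0.617% in 2 of the macrophage-like clusters and 0.148% in the one led by *Mmp12*.

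Comparing the gates within monocyte-like cells asked whether cells of 1 class that carried tumor-derived ZsG differed in complement transcripts. *C1qa* stood at 240 CPM in the ZsG-positive and 14.8 in the ZsG-negative cells, 16.2-fold apart (8.21 to 37.7). *C1qb* stood at 541 and 142, 3.8-fold apart (3.03 to 4.83), and *C1qc* at 197 and 29.6, 6.66-fold apart (4.08 to 11.7). *C3ar1* was at 168 and 35.1 (4.77-fold, 3.04 to 7.96), *C5ar1* at 97.1 and 22.2 (4.38-fold, 2.49 to 8.52) and *Cfb* at 213 and 96.1 (2.21-fold, 1.68 to 2.98). *Cfp* was at 120 and 62.9 (1.91-fold, 1.35 to 2.78). *C3* was at 185 in both, with a ratio of 1.00 (0.814 to 1.24), so that counting error allowed no more than 1.24-fold in either direction. Of the members 6 of 8 were called higher and 0 lower, where 4.06% and 3.68% of 8606 genes were; the median log2 ratio was 2.03 for members and 0.02 for all genes. Among 8 other complement genes past the minimum, 1, *Itgax*, was called higher (16.5 against 3.70). Calls lower among them are not reported here.

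Beside these values, the ZsG-negative monocyte-like cells carried all 6 NK markers at 468 CPM in sum, against 11.7 (5 of 6, *Eomes* at 0) in the ZsG-positive cells; their 9 macrophage markers summed to 2599.5 (6 detected, with *Gpnmb*, *Mmp12* and *Pf4* at 0) against 1939 (9 detected). The part of these transcripts in the result was not tested. The sizes depended on which cells were classed as monocyte-like: the log2 ratio of *C1qa* was 4.02 as reported, 5.85 at a clustering resolution of 1.2 and 6.82 with cells classed by marker score. A total of 58 ZsG-negative cells carried the comparison on 1 side, and 44 of them had no C1q UMI against 192 of 738 ZsG-positive cells.

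C1q transcripts were also counted in ZsG-positive lymphoid cells, which are not known to make them, and their level there stands beside the gate values. In NK cell/ILC-like cells the C1q sum was 279 CPM in the ZsG-positive (113 cells) and 6.14 in the ZsG-negative library (2513 cells). In T cell-like cells it was 396 and 8.09. Macrophage markers moved with it, at 149 (7 of 9, *Adgre1* and *Mmp12* at 0) against 11.7 (9 of 9) in NK cell/ILC-like cells and 264 (9 of 9) against 14.1 (8 of 9, *Mmp12* at 0) in T cell-like cells. Of the 148 C1q UMIs in ZsG-positive NK cell/ILC-like cells 35.1% were *C1qa*, 41.2% *C1qb* and 23.6% *C1qc*, against 35.1%, 42.6% and 22.2% in macrophage-like cells, and in ZsG-positive T cell-like cells the shares were 29.3%, 47.4% and 23.4%. Monocyte-like cells had a different mixture, with 24.5%, 55.3% and 20.1% in the ZsG-positive and 7.92%, 76.2% and 15.8% in the ZsG-negative library.

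With the NK cell/ILC-like level of the same library taken off each member, the monocyte-like C1q sum was 699 CPM in the ZsG-positive and 181 in the ZsG-negative library, and 6 members were at least 2-fold higher, a count by size alone since these differences have no interval. How the transcripts came to be counted in lymphoid cells was not tested, and neither was whether the same amount was added to monocyte-like cells. *C3* was at 7.54 and 0.522 CPM in ZsG-positive and ZsG-negative NK cell/ILC-like cells. *C5ar1* had 1.89 and 0.131. Thinned to 3000 UMIs, *C1qb* was seen in 39.5% of ZsG-positive monocyte-like cells, in 29.1% of ZsG-positive NK cell/ILC-like cells (55.7% and 36.3% unthinned, with medians of 6947.5 and 3556 UMIs), in 19.3% of ZsG-negative monocyte-like cells and in 0.717% of ZsG-negative NK cell/ILC-like cells (22.4% and 1.03% unthinned, medians 8891.5 and 4584). The difference between monocyte-like and NK cell/ILC-like cells of the ZsG-positive library was thus much smaller in share than in level. Per cell, the median C1q share of UMIs was 0.0206% in ZsG-positive monocyte-like and 0.0272% in ZsG-positive NK cell/ILC-like cells. The 95th percentiles were 0.416% and 0.110%. The higher C1q sum of ZsG-positive monocyte-like cells thus came from the upper part of the class and not from its median cell.

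**Figure D4:**
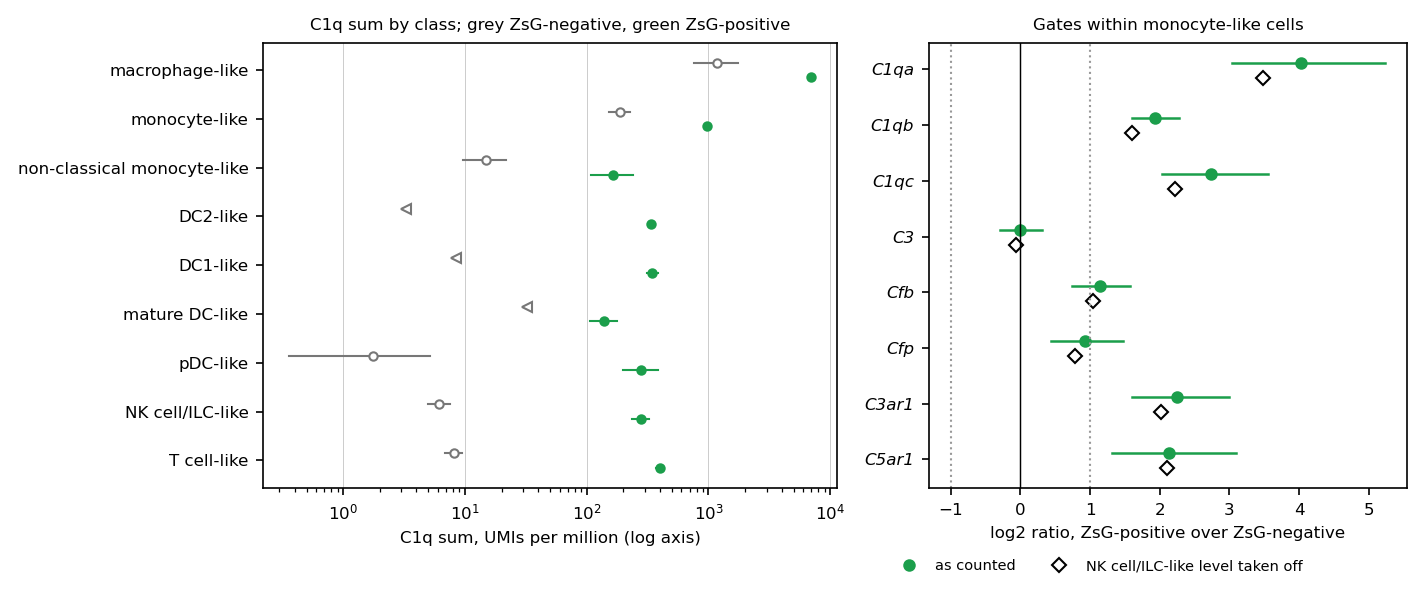
Left, the C1q sum in CPM (log axis) by class in the ZsG-negative (open grey) and ZsG-positive (filled green) library, with exact Poisson 95% intervals and triangles at the level of 3 UMIs where no UMI was seen. Right, the log2 ratio between the gates in monocyte-like cells as counted (circles, exact conditional 95% intervals) and with the NK cell/ILC-like level taken off (diamonds), with dotted lines at 2-fold; *C3* lies at 0.00 and *C1qa* at 4.02.

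In non-classical monocyte-like cells the gates differed less clearly. *C3* stood at 264 CPM in the ZsG-positive and 255 in the ZsG-negative cells, with a log2 ratio of 0.05. The C1q sum was 165 and 14.8, but the first value lay below the 279 of NK cell/ILC-like cells in the same library. Only 5 of the members passed the UMI minimum, and 1, *C1qb* (76.4 against 11.9), was called higher, beside 1.09% higher and 2.19% lower of 6773 genes; with the NK cell/ILC-like level taken off it was below 0 in the ZsG-positive library and 0 members were counted as 2-fold higher by size. *Cfb* had 2 UMIs in the ZsG-positive and 42 in the ZsG-negative cells.

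Properdin transcripts were highest in DC2-like cells, whereas the other dendritic classes lay below macrophage-like and monocyte-like cells. With both libraries summed, *C1qa* and *C1qb* stood above *Cfp* in DC1-like (89.0 and 124 CPM) and mature DC-like cells (39.1 and 58.7). *Cfp* stood at 216 CPM (201 to 232) in DC2-like cells, above the 170 (166 to 175) of macrophage-like and the 115 of monocyte-like cells, and at 68.1 in DC1-like, 53.9 in pDC-like, 23.1 in mature DC-like and 2.40 in NK cell/ILC-like cells. In DC2-like cells it was at 180 in the ZsG-negative and 228 in the ZsG-positive library, and in pDC-like cells at 53.1 and 63.1 (log2 ratio 0.25, -0.93 to 1.24). In DC1-like cells it was at 30.8 and 79.9, 2.59-fold apart (1.38 to 5.37). The DC2-like cells comprised 3 clusters with different shares of each gate, and *Cfp* was at 194 and 344 in the one led by *Apod* (1.77-fold, 1.2 to 2.66) and at 145 and 208 in the one led by *Hpgd* (1.43-fold, 1.01 to 2.02). The largest, led by *Ifitm1*, had 6 ZsG-negative cells, at 419 against 213 in the ZsG-positive ones. Both libraries thus had *Cfp* in DC2-like cells far above their own NK cell/ILC-like level (1.96 and 15.1). At a clustering resolution of 1.2 a cluster of 78 cells led by *Apod*, *Cd209d* and *Cyp7b1* was named pDC-like. The order of the dendritic classes for *Cfp* was not rerun with that naming.

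C1q in dendritic cells came almost wholly from the ZsG-positive library. ZsG-negative DC2-like (85 cells), DC1-like (27 cells) and mature DC-like cells (12 cells) had 0 C1q UMIs, which allows levels of up to 3.30, 8.41 and 32.2 CPM (3 UMIs). In the ZsG-positive library the C1q sums of these classes were 340, 346 and 139, and that of pDC-like cells 280 against 1.75 (3 UMIs) in the ZsG-negative library. Beside the 279 and 396 of ZsG-positive NK cell/ILC-like and T cell-like cells, the sum of mature DC-like cells was lower and those of the other dendritic classes lay between. The median cell gave 0.0123% (DC2-like), 0.00983% (DC1-like), 0.00994% (mature DC-like) and 0.0178% (pDC-like) of its UMIs to C1q. These medians were all below the 0.0272% of NK cell/ILC-like cells. In the DC2-like clusters C1q made up 0.0398% (led by *Ifitm1*), 0.0143% (*Hpgd*) and 0.0123% (*Apod*) of all ZsG-positive UMIs, against 0.0279% in NK cell/ILC-like cells. Macrophage markers summed to 190 in ZsG-positive and 111 in ZsG-negative DC2-like cells (9 and 5 of 9 detected; *Ms4a7*, *Gpnmb*, *Mmp12* and *Pf4* at 0), to 243 and 0 in DC1-like cells (9 and 0), to 95.9 and 0 in mature DC-like cells (9 and 0) and to 351 and 47.9 in pDC-like cells (6 and 3 detected; *Trem2*, *Gpnmb* and *Mrc1* at 0 in the first, *Ms4a7*, *Adgre1*, *Trem2*, *Mmp12*, *Pf4* and *Mrc1* in the second), and their part was not tested. Levels of *C3* in the dendritic classes ran from 1.08 (pDC-like) to 17.9 (DC2-like) and those of *C5ar1* from 0 to 13.5.

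Over the 10 named classes, 11313 genes were ranked by the Pearson correlation of their log2 level (with 1 CPM added) with that of each member. The 3 most alike that are not members are named. The points share 2 libraries and the lymphoid C1q level above, so these values only describe likeness. *C1qa* was most like *Bax*, an effector of apoptosis (r = 0.987), the chemokine gene *Ccl8* (0.971) and *Gbp2b* (0.964). *C1qb* was most like *Bax* (0.984), *Phf23* (0.970) and *Selenom* (0.968), and *C1qc* like *Bax* (0.988), *Ccl7* (0.971) and *Gbp2b* (0.968). The C1q chains were alike among themselves at 0.988 to 0.993.

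*C3* followed other genes: *Gda*, which encodes guanine deaminase (0.991), *Gm15832* (0.987) and *Pla2g7*, which encodes a phospholipase that degrades platelet-activating factor (0.986), and its correlation with *C1qa* was 0.623. *Cfb* was most like *Il1rn*, the interleukin-1 receptor antagonist (0.970), *Oas1g* (0.970) and *Ptgs2os2* (0.968). *Cfp* was most like *H2-DMb1*, which loads peptides on class II molecules (0.966), *5031439G07Rik* (0.954) and *Hmox2* (0.953), and no member correlated with it above 0.720. *C3ar1* was most like *Inhba* (0.986), *Ccl7* (0.977) and *Phf23* (0.974), and *C5ar1* like the scavenger receptor gene *Msr1* (0.98), *Adgre1*, which encodes F4/80 (0.968), and *Lpl* (0.967).

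A second sort, of cells positive for CD45 and the T cell receptor, held the same genes in cells that had entered it. Its 2 libraries were summed, because the labels contradict each other on which is ZsG-negative, and were counted against another gene list, so levels are set side by side only. Of 2694 cells kept, 363 formed an unnamed cluster led by the chemokine genes *Ccl2* and *Ccl7*, with macrophage markers at 4809 CPM and *Cd3e*, a T cell receptor component, at 43.3. In it *C1qa* stood at 1767, *C1qb* at 2159 and *C1qc* at 1206, against a C1q sum of 35.3 in the 647 T cell-like cells. *C3* was at 115, *Cfp* at 149, *C3ar1* at 360 and *C5ar1* at 191. *Cfb* stood at 28.1, against 291 in the macrophage-like cells of the CD45 sort. The gene *Gm20547*, which overlaps *Cfb* on the same strand, is listed for the T cell sort (with 0 UMIs in this cluster) and not for the CD45 sort; its part in this difference was not tested. *Cfp* was again high in DC2-like cells (178, 191 cells) and present in DC1-like (67.9, 43 cells) and pDC-like cells (49.0, 620 cells), whereas the C1q sum in DC1-like cells was 2.95.

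**Figure D5:**
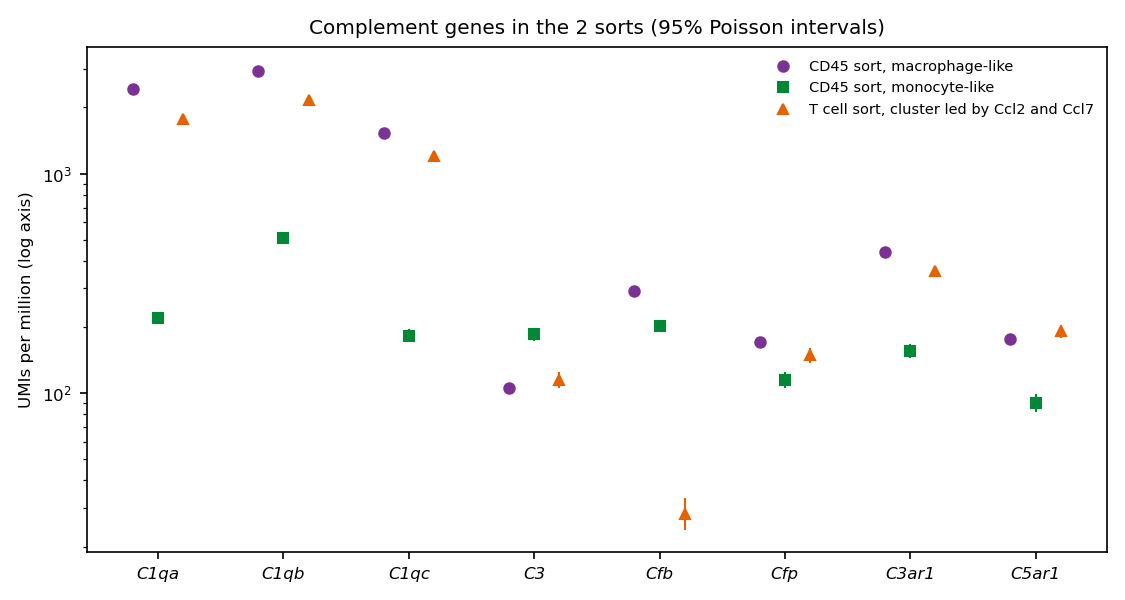
Levels of the complement genes in CPM (log axis) in macrophage-like (circles) and monocyte-like (squares) cells of the CD45 sort and in the cluster led by *Ccl2* and *Ccl7* of the T cell sort (triangles), with exact Poisson 95% intervals; gates summed. The C1q genes stand at 1206 to 2159 in the T cell sort cluster, and *Cfb* at 28.1 lies below both classes of the CD45 sort.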

How the data were processed

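UMI counts per gene and cell barcode were used as deposited; the authors made them from 10x 3' v3.1 libraries with Cell Ranger (6.1.2 in the submitters' processing notes and the header of the T cell matrix, 7.0.0 in that of the CD45 matrix) on mm10 and combined both libraries of a sort. The barcode suffix gave the library. The CD45 libraries shared 6 barcode sequences and those of the T cell sort 1. Cells with 1000 to 5999 genes and under 10% mitochondrial UMIs were kept. Clusters came from Seurat 5.3.0 under R 4.3.3, at resolution 0.8, from 20 components of 2000 variable genes among which complement genes were not allowed. A cluster took a class if at least 3 and at least 50% of its markers were raised (in 10% of cells and 1.2-fold) with a mean log2 fold at least 0.5 above the next class and no other class leading its top 10 genes; this rule was set after clusters had been seen, and the 8 members and all lists were chosen with earlier results of these data known. Named genes were the 8 members, the other listed complement genes with at least 20 UMIs in a myeloid class, and for each member the 3 genes most alike among those with at least 100 UMIs. UMIs were summed per class and library (Python 3.11.15, scipy 1.17.1), with no test because each gate had 1 library. Promoters came from RefSeq and gene positions from GENCODE vM21.

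Scrublet in scanpy 1.11.5 called 1 of 8822 cells a doublet, which was taken as not having worked, so no doublet was removed. On data simulated for the macrophage-like over monocyte-like comparison the calls recovered 100% of 100 genes changed 4-fold and 99% of 100 changed 3-fold, with 0.54% of 11480 unchanged genes called; for the gates in monocyte-like cells these were 98%, 94% and 1.34% of 8419. The simulated sums held counting error alone, as the intervals assume. These rates therefore do not cover variation between cells, mice or libraries. The changed genes were drawn from those with at least 100 UMIs over both sides, so recovery nearer the minimum of 20 UMIs was not measured. Alternatives were other cell filters, doublet scores, cluster resolutions, scalings (with edgeR 4.0.16 TMM factors), thinning and thresholds; the ZsG-positive library alone for the counts and shares and removal of the NK cell/ILC-like level were chosen after seeing the data. Some results of the other complement genes, 1 unnamed cluster and 1 promoter pattern are not reported here.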

Additional observations from a re-analysis of the deposited data

Results flagged for a closer look

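*Cfb* differed in direction between the gates of different classes. In non-classical monocyte-like cells its log2 ratio of ZsG-positive over ZsG-negative was -1.08 (-4.17 to 0.86), from 2 against 42 UMIs or 11.8 against 24.9 CPM. In monocyte-like cells the log2 ratio was 1.15 (0.74 to 1.58) and in T cell-like cells 6.57. This difference between classes was not tested, and counting error alone leaves the direction in non-classical monocyte-like cells unresolved.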

How the results depend on the processing

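Alternatives were run for macrophage-like over monocyte-like cells, for the gates within monocyte-like and non-classical monocyte-like cells and for the C1q share. In these comparisons no called value that kept a ratio changed direction. The calls of non-classical over classical monocyte-like cells and those between the macrophage-like clusters were not rerun. With the NK cell/ILC-like level taken off, *C1qb* in non-classical monocyte-like cells had no ratio. It was then -38.6 CPM in the ZsG-positive and 9.24 in the ZsG-negative library, the opposite order to the call. The log2 ratio of the C1q sums, macrophage-like over monocyte-like, was 2.93 as reported. It was 2.87 at a mitochondrial limit of 5%, 3.01 without the top 5% of doublet scores, 2.98 without myeloid cells holding T or NK transcripts, 1.46 at resolution 1.2, 2.87 with complement genes kept in the clustering, 2.41 with each cell classed by its highest marker score, 3.02 after thinning, 2.76 with TMM factors, 3.01 as a mean of per-cell levels, 2.82 in the ZsG-positive library alone and 3.25 with the NK cell/ILC-like level taken off. The C1q share of macrophage-like UMIs (0.691%) became 0.671%, 0.707% and 0.709% under the first 3 of these, 0.663% at resolution 0.4, 0.744% at 1.2, 0.707% with complement genes kept, 0.835% by marker score, 0.854% without mitochondrial and ribosomal protein genes in the total and 0.630% after thinning. The count for the gates in non-classical monocyte-like cells (1) became 7 by marker score, 0 after thinning, 0 with at least 100 UMIs, 2 from per-cell means and 0 with the NK cell/ILC-like level taken off. The counts between macrophage-like and monocyte-like cells and between the gates of monocyte-like cells stayed within 4 to 6 and 6 to 7, those with the NK cell/ILC-like level taken off being counted by size alone, without an interval. The sizes behind the gate counts of monocyte-like cells moved more. At resolution 1.2 the log2 ratios of *C1qa* and *C1qb* were 5.85 and 3.31 (*C1qc* moved the same way), and by marker score those of *C1qa*, *C1qb* and *C1qc* were 6.82, 4.04 and 5.18, against 4.02, 1.93 and 2.73 as reported. By marker score that of *C3ar1* was 4.14 (2.25 as reported) and that of *Cfb* 3.02 (1.15), and after thinning that of *C1qa* was 4.96 and that of *C5ar1* 1.46 (2.13). Over all alternatives run the lowest log2 ratios were 3.47 for *C1qa*, 1.58 for *C1qb* and 2.22 for *C1qc*. In non-classical cells the marker score gave *C1qb* 6.55 (2.69 as reported) and *Cfb* 2.24 (-1.08, not called). The cause of these moves was not tested. The finer resolution put 592 macrophage-like cells into the monocyte-like class. The marker score also put 310 macrophage-like cells into the monocyte-like class, whose C1q sum became 1566 CPM. Its 239 non-classical monocyte-like cells shared 103 with the reported class and included 43 macrophage-like and 49 monocyte-like cells. Their C1q sum was 1619 CPM against 28.5 as reported. By marker score it thus lay slightly above the 1566 of monocyte-like cells, whereas the reported sums were 28.5 and 909. *Cfb*, macrophage-like over monocyte-like, kept its sign under 14 of 15 alternatives (lowest -0.16), and *C3* between the gates of monocyte-like cells ran from -0.63 to 0.21. TMM factors shifted all macrophage-like over monocyte-like ratios by -0.17 (log2). By marker score 608 of 8822 cells (6.89%) lay within 0.1 of the next class. At resolution 0.4 no cluster was monocyte-like, so its ratios have no value. No paired analysis was possible because each gate gave 1 library, and no replicate could be left out. The number of cells limits the ZsG-negative side of the gates in monocyte-like cells, with 58 cells. Their median depth was 8891.5 UMIs, against 6947.5 in the ZsG-positive cells.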
